A study of Mus musculus with 4 samples.

Results

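Interferon-stimulated genes and the genes of the interferon pathway were followed across 4 populations of mouse CD4+ CD8- thymocytes. The group was fixed as a list of 43 gene names, and each gene was represented by 1 probe set, the one with the highest mean over the 4 arrays. Of the 43 names, 40 were on the array under a single gene name, of 18193 such genes in all. Gbp4, Ifi44 and Isg15 had no probe set listed under their name alone and were not analysed here. The 40 genes comprised 4 receptor chain genes, 6 transcription factor genes, 7 immunity GTPase genes, 21 type I interferon genes and 2 SOCS genes.

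RNA was measured on Affymetrix mouse arrays, with 1 array for each population. Foxp3-fusion cells were GFP+ cells of Foxp3(gfp/gfp) females, whose allele makes a fusion of GFP and the transcription factor Foxp3. Foxp3-null cells were GFP+ cells of Foxp3(gfpko/wt) females, which carry a GFP-tagged knockout allele beside a wild-type one. The GFP- CD25+ and GFP- CD25- populations came from Foxp3(gfp/gfp) females, so all 4 populations carry a GFP-tagged Foxp3 allele. All mice were 6 to 8 weeks old and came from crosses of 129/Sv to C57BL/6. The Foxp3-null mice had been backcrossed for 2 generations and the others for 4 to 6, so Foxp3 genotype, residual 129/Sv genome and array cannot be told apart in any comparison with Foxp3-null cells. Foxp3 is X-linked, and each cell of a heterozygous female uses 1 of its alleles, so the Foxp3-null cells had developed in mice that also hold wild-type regulatory T cells. The labels do not say how many mice were pooled. With 1 array per population no difference has a replicate check, and no p-value or error is given.

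Interferons are cytokines of defence against viruses and intracellular bacteria. Type I interferons bind the receptor chains Ifnar1 and Ifnar2, and the signal passes through the kinases Jak1 and Tyk2 to a complex that holds Stat2 and Irf9 and binds the interferon-stimulated response element (ISRE). Interferon gamma binds Ifngr1 and Ifngr2 and acts through Jak1 and Jak2 on genes that carry the gamma-activated site (GAS). The immunity GTPases, which comprise the guanylate-binding proteins and the immunity-related GTPases such as Igtp, Irgm1 and Iigp1, are known as strong targets of interferon gamma and act on the vacuoles in which pathogens live. In the thymus, medullary epithelial cells make type I interferon without infection, and late mature single-positive thymocytes are known to express interferon-stimulated genes.

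Foxp3 itself read 8.82 log2 in Foxp3-fusion cells, 7.27 in Foxp3-null cells, 2.88 in GFP- CD25+ cells and 2.76 in GFP- CD25- cells; it is not known here whether its probe set lies in a part that the knockout allele lacks. Il2ra, which encodes CD25, read 10.35 log2 in Foxp3-fusion, 9.11 in Foxp3-null, 7.85 in GFP- CD25+ and 3.62 in GFP- CD25- cells, with the GFP- populations in the order of their CD25 gates. Values are log2 signals after quantile normalization, which gives the arrays 1 common distribution, and differences on the scale as deposited are set beside them where they matter. The 90th percentile of the deposited values was 8.16 on the Foxp3-fusion array, 7.54 on the Foxp3-null array, 7.63 on the GFP- CD25+ array and 7.90 on the GFP- CD25- array. The 3' to 5' gap of the actin control probe sets, which grows as cRNA is shortened, was 5.02 log2 in Foxp3-fusion, 7.10 in Foxp3-null, 9.29 in GFP- CD25+ and 8.37 in GFP- CD25- cells. The gap of the Gapdh control was 4.60 in Foxp3-fusion, 4.93 in Foxp3-null, 6.51 in GFP- CD25+ and 6.56 in GFP- CD25- cells. The part of cRNA length in the differences below was not tested. A floor of 4.11 was set, under which at least 90% of the probe sets of genes silent in this tissue lay on each array. Of 9 measured CD4 T cell markers 8 were above it on every array, Cd4 between 8.37 and 9.37. The exception was Zbtb7b, at 4.07 in Foxp3-fusion, 4.58 in Foxp3-null, 4.16 in GFP- CD25+ and 4.83 in GFP- CD25- cells, and Thy1 was also lowest in Foxp3-fusion cells, at 6.72 against 8.30 or more in the others. Cd8a read between 4.42 and 4.78, little above the floor. Of 6 plasmacytoid dendritic cell markers, Siglech and Ly6d were under the floor on every array, Pacsin1, Tcf4 and Klk1 above it on every array, and Irf8 above it in Foxp3-fusion cells alone, at 4.83. Their summed linear signal was 291 in Foxp3-fusion, 483 in Foxp3-null, 429 in GFP- CD25+ and 478 in GFP- CD25- cells. Of 7 B cell markers 6, Cd79a among them, were under the floor on every array, and Ms4a1 was above it on 3, highest at 5.63 in Foxp3-null cells. Of 13 myeloid markers 9, Itgax among them, lay under the floor on all arrays. Cst3 read 5.77 in Foxp3-fusion and 5.78 in Foxp3-null cells and was under the floor in both GFP- populations. H2-Aa was above it on every array, from 5.16 in Foxp3-fusion to 6.68 in GFP- CD25- cells. Csf1r and Adgre1 were highest in Foxp3-null cells, at 5.50 and 5.21. Summed linear signal of the 13 was 189 in Foxp3-fusion, 290 in Foxp3-null, 218 in GFP- CD25+ and 212 in GFP- CD25- cells. The part of such cells in the differences below was not tested. Of 8 natural killer and NKT cell markers 4 were under the floor on all arrays, and Zbtb16 and Klrd1 were above it on the GFP- CD25- array alone, at 6.39 and 6.32. Eomes was lowest on that array, at 4.74, and Nkg7 read 5.88 in Foxp3-fusion, 6.25 in Foxp3-null, 2.95 in GFP- CD25+ and 4.95 in GFP- CD25- cells. The summed signal of the 8 was 149 in Foxp3-fusion, 188 in Foxp3-null, 133 in GFP- CD25+ and 248 in GFP- CD25- cells, and the part of such cells in the differences from GFP- CD25- cells was not tested.

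Of the 40 genes, 37 were above the floor on all 4 arrays. The other 3, Oasl1, Bst2 and Socs1, were under it on all 4, so no gene passed through 1 bright array. The genes of the ligands in a wider interferon list, Ifng, Ifnb1 and Ifna4, were also under the floor on every array. Stat2, Dhx58 and Oasl2 were little above the floor, at 4.75 to 4.95, 4.22 to 4.45 and 4.26 to 4.35 log2. Their ranges over the 4 arrays were 0.09, 0.20 and 0.04 on the deposited scale. Such small ranges so near the floor do not show steady expression.

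The immunity GTPase genes were most strongly expressed in Foxp3-fusion cells. Gbp3, a guanylate-binding protein gene, had the widest spread, with 10.68 log2 in Foxp3-fusion cells, 8.02 in Foxp3-null cells, 7.71 in GFP- CD25+ cells and 6.96 in GFP- CD25- cells. The Foxp3-fusion array thus stood far above the other 3, which lay within 2.07-fold of each other. Gbp3 in Foxp3-fusion cells was 13.1-fold over GFP- CD25- cells and 6.33-fold over Foxp3-null cells. Gbp7, its neighbour on chromosome 3, had 11.73 log2 in Foxp3-fusion cells, 10.19 in Foxp3-null cells, 9.71 in GFP- CD25+ cells and 9.92 in GFP- CD25- cells. It was again high on a single array, at 3.50-fold over GFP- CD25- cells and 2.90-fold over Foxp3-null cells. Gbp2 lies in the same cluster, which spans positions 142530336 to 142638008 in GRCm38.p6 with Gbp7, Gbp3 and Gbp2 in that order. Gbp2 read 9.95 log2 in Foxp3-fusion cells, 9.63 in Foxp3-null cells, 8.82 in GFP- CD25+ cells and 9.82 in GFP- CD25- cells, so its low array was GFP- CD25+ and it lacked the Foxp3-fusion peak of its neighbours.

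Gbp6, in a second guanylate-binding cluster on chromosome 5, had 11.32 log2 in Foxp3-fusion cells, 11.46 in Foxp3-null cells, 10.98 in GFP- CD25+ cells and 10.44 in GFP- CD25- cells. The GFP+ populations were 1.84-fold and 2.02-fold over GFP- CD25- cells on the normalized scale and 2.08-fold and 1.62-fold on the deposited scale. They were only 1.27-fold and 1.40-fold over GFP- CD25+ cells, which were themselves 1.45-fold over GFP- CD25- cells on the normalized scale. Igtp, also known as Irgm3, read 11.62 log2 in Foxp3-fusion cells, 11.04 in Foxp3-null cells, 10.51 in GFP- CD25+ cells and 10.49 in GFP- CD25- cells. Irgm1, a regulator of the other immunity-related GTPases, read 7.96 log2 in Foxp3-fusion cells, 7.68 in Foxp3-null cells, 6.27 in GFP- CD25+ cells and 6.78 in GFP- CD25- cells. For these 2 genes the GFP+ populations were the higher pair, and Foxp3-fusion cells exceeded GFP- CD25- cells by 2.19-fold for Igtp and 2.27-fold for Irgm1. Iigp1, an effector GTPase that loads onto pathogen vacuoles, ran differently, with 11.15 log2 in Foxp3-fusion cells, 8.82 in Foxp3-null cells, 10.06 in GFP- CD25+ cells and 10.08 in GFP- CD25- cells. Foxp3-null cells were the low population for Iigp1, 5.01-fold below Foxp3-fusion cells and 2.40-fold below GFP- CD25- cells. By contrast, they were the second highest population for Gbp3, Gbp7, Igtp and Irgm1 on the normalized scale. For Gbp7 the deposited scale put them under GFP- CD25- cells, at 9.90 against 9.99 log2. With the median over both of its probe sets, Iigp1 in Foxp3-fusion over GFP- CD25- cells was 0.81 log2, under 2-fold.

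**Figure D1:**
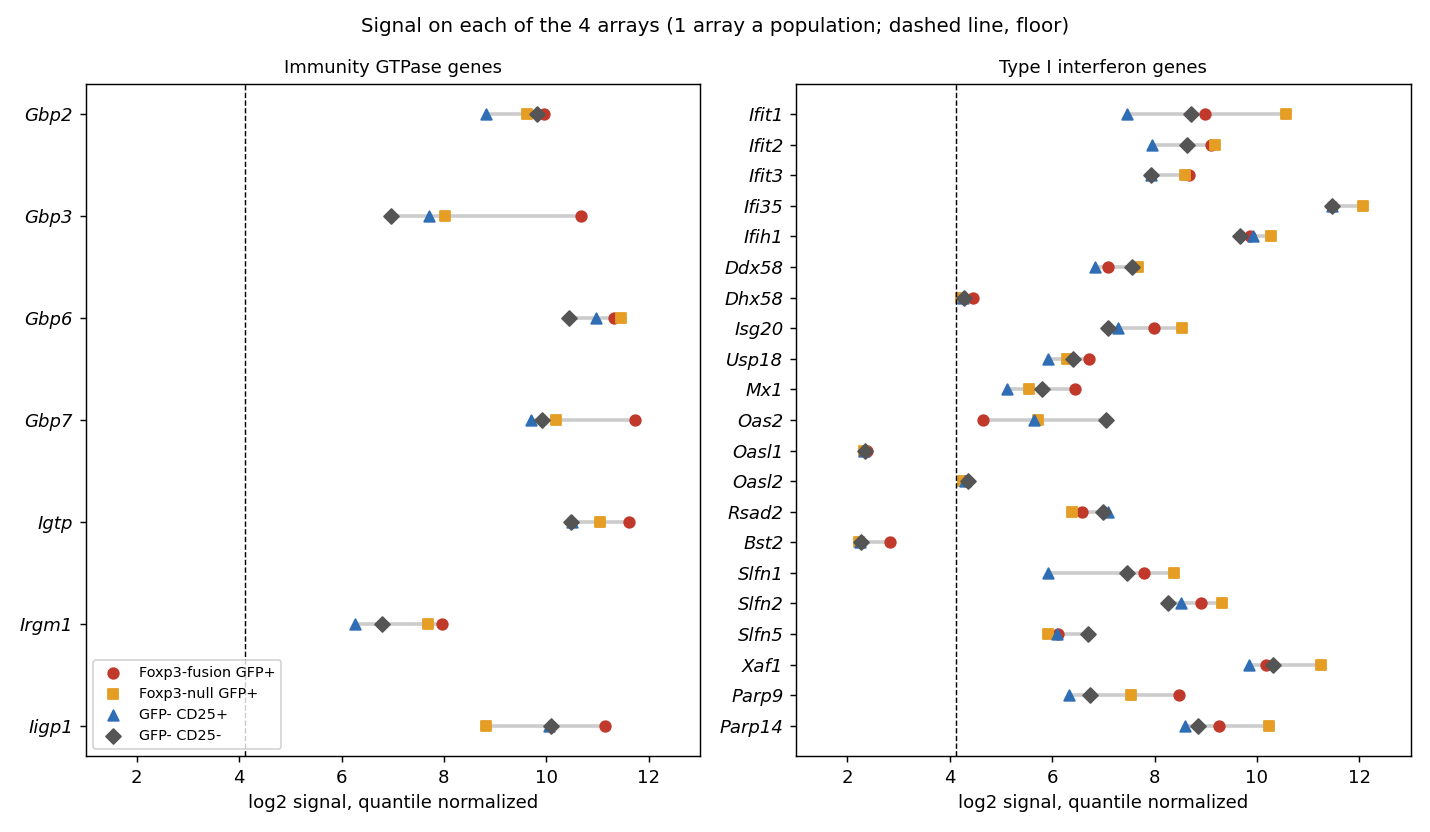
Log2 signal of each immunity GTPase gene (left) and each type I interferon gene (right) on the 4 arrays, 1 marker per population, with the floor as a dashed line. Gbp3, Gbp7 and Iigp1 peak on the Foxp3-fusion array, whereas Ifit1, Xaf1 and Parp14 peak on the Foxp3-null array and Oas2 is lowest in Foxp3-fusion cells.

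Across the 7 GTPase genes, Foxp3-fusion was the highest array for 6, and Foxp3-null for the seventh, Gbp6. Over all 8681 genes above the floor on some array, Foxp3-fusion was highest for 25.3%. On the deposited scale it was highest for 7 of 7 GTPase genes and for 44.5% of all genes. The median log2 difference of Foxp3-fusion over GFP- CD25- cells was 1.13 for the GTPases and -0.05 for all genes, and the medians on the deposited scale were 1.34 and 0.12. Against GFP- CD25+ cells the GTPase median was 1.13 and that of all genes -0.09, or 1.62 and 0.18 on the deposited scale. There 6 of 7 GTPase genes were past 2-fold upward on both scales, against 11.6% of all genes on the normalized scale and 20.9% on the deposited one. Against Foxp3-null cells the GTPase median was 0.58 and that of all genes -0.15, or 1.13 and 0.23 on the deposited scale. The GTPase genes at least 2-fold higher there on both scales were Gbp3, Gbp7 and Iigp1. Of all genes, 9.28% were higher on the normalized scale and 19.5% on the deposited one. Foxp3-null over GFP- CD25- cells had a GTPase median of 0.55, against 0.19 for all genes, and 0.21 against 0.00 on the deposited scale. In GFP- CD25+ over GFP- CD25- cells the GTPase median was -0.02 and no GTPase gene reached 2-fold, although Gbp2 was 2.37-fold lower on the deposited scale.

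The members of the guanylate-binding family are close in sequence, so a probe set may read relatives, and other probe sets of the same gene were compared where they were above the floor. The other Gbp6 probe set read 12.16 log2 in Foxp3-fusion cells, 11.35 in Foxp3-null cells, 10.47 in GFP- CD25+ cells and 9.99 in GFP- CD25- cells. On it Foxp3-fusion was the highest array, 4.48-fold over GFP- CD25- cells, where the brighter probe set gave 1.84-fold. For Gbp2 the other probe set read 8.98 log2 in Foxp3-fusion cells, 8.56 in Foxp3-null cells, 6.23 in GFP- CD25+ cells and 7.93 in GFP- CD25- cells. It kept GFP- CD25+ as the low array, and there Foxp3-fusion exceeded GFP- CD25- cells by 2.08-fold in place of 1.10-fold. The other Gbp7 probe set gave 1.91-fold over GFP- CD25- cells and that of Iigp1 1.46-fold, each in the same direction as the probe set used. Gbp3, Igtp and Irgm1 had 1 probe set each.

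**Figure D2:**
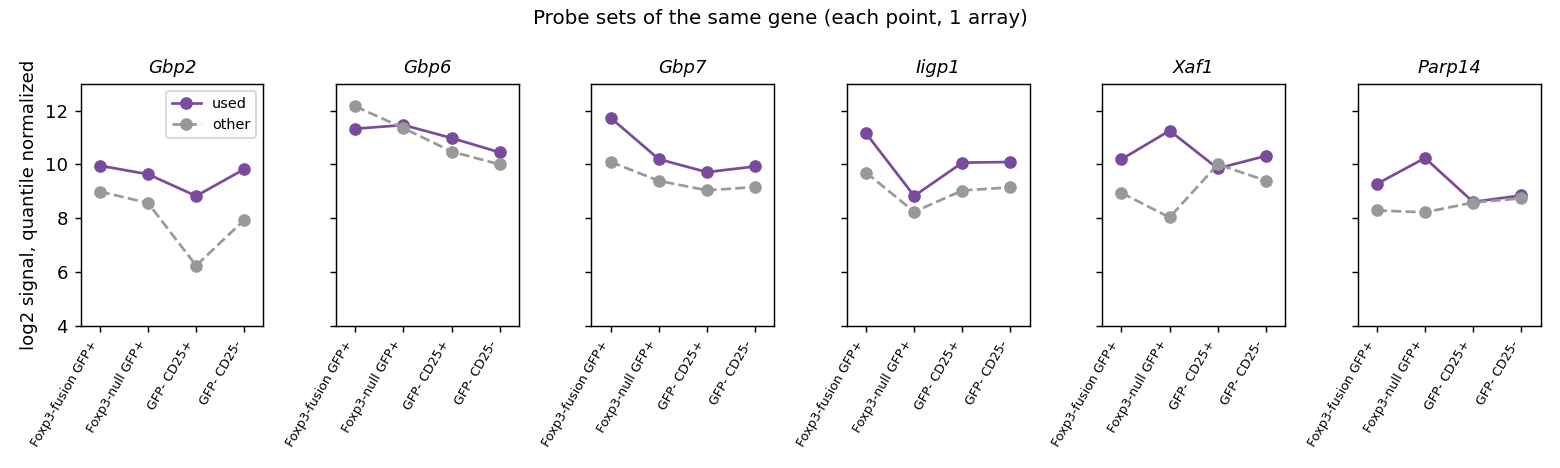
Log2 signal of every probe set above the floor for 6 genes on the 4 arrays, with the probe set used as a solid line and the other as a dashed line. Both probe sets of Gbp2, Gbp7 and Iigp1 share their lowest array, whereas those of Xaf1 and Parp14 differ most on the Foxp3-null array.

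The promoters of 3 GTPase genes and of Ifit1, the type I gene with the widest range, are shown because the classical elements of both interferon pathways can be read in them. The sequences are from RefSeq on build GRCm38.p6, run from 250 bases before to 50 after the start site and are written 5' to 3' on the gene's strand. Capitals mark matches, on either strand, to the ISRE core GAAANNGAAA or to the GAS motif TTCNNNGAA. The promoter of Gbp3 lies at chr3:142559794-142560093 on the plus strand and was taken from its 2 listed promoters as the one with more ISRE matches, that of Gbp7 at chr3:142530086-142530385 on the plus strand, that of Irgm1 at chr11:48871371-48871670 on the minus strand and that of Ifit1 at chr19:34640639-34640938 on the plus strand.
Gbp3: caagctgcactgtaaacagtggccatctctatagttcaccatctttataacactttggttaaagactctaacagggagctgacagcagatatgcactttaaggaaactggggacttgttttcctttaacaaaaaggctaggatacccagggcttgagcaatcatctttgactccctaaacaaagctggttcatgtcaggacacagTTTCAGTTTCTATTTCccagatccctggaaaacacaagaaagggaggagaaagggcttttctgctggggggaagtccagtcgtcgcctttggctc
Gbp7: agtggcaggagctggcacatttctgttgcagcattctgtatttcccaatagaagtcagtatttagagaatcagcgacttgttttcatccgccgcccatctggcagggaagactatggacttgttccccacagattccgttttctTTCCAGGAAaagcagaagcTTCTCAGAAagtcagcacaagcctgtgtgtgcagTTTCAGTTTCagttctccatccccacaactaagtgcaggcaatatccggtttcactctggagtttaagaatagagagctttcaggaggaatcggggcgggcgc
Irgm1: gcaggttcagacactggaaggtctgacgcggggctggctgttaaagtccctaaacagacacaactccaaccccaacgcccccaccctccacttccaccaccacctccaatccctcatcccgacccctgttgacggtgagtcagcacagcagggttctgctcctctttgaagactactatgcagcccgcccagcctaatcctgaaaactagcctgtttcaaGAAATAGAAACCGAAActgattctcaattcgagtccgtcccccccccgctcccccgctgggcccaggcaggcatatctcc
Ifit1: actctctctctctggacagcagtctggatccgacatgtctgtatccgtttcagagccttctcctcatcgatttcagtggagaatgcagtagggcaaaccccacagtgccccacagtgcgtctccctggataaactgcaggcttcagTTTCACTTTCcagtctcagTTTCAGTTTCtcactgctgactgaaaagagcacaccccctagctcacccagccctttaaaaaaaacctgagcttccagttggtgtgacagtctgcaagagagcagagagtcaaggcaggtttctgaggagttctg
In Gbp3 a pair of overlapping ISRE matches begins 45 and 39 bases before the start site. Gbp7 has 1 ISRE match 53 bases before the start site and GAS matches at 106 and 87 bases. In Irgm1 the overlapping ISRE matches begin 30 and 24 bases before the start site, and in Ifit1 separate ones begin 104 and 85 bases before it.

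Promoters were held for 32 of the 40 genes. The ISRE core was found in 5 of the 5 GTPase genes with a promoter, in 7 of 15 type I genes, in 2 of 6 transcription factor genes and in 0 of 4 receptor genes. It was present in 3.99% of all 27025 genes with a promoter of the same length. GAS matches were found in 11 of the 32 genes, Gbp7 and Igtp among the GTPases, and in 9.55% of all genes. An ISRE and a GAS match overlapped in 1 of the 32 genes. The forkhead motif GTAAACA, of the kind bound by Foxp3 and its relatives, was in 2 of the 32, Gbp3 and Rsad2, and in 4.05% of all genes. Genes with an ISRE match therefore include both Gbp3, highest in Foxp3-fusion cells, and Ifit1, highest in Foxp3-null cells, and a match is a description of letters and not a site in use.

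The type I interferon genes differed among themselves in which population was highest. The median log2 difference of Foxp3-fusion over GFP- CD25- cells was 0.27 for the 19 above the floor and -0.05 for all genes, or 0.54 and 0.12 on the deposited scale. Ifit1, which binds viral RNA that lacks a host cap, read 8.98 log2 in Foxp3-fusion cells, 10.57 in Foxp3-null cells, 7.46 in GFP- CD25+ cells and 8.71 in GFP- CD25- cells. Foxp3-null cells were highest and GFP- CD25+ cells lowest, 8.66-fold apart. Its neighbour on chromosome 19, Ifit2, read 9.09 log2 in Foxp3-fusion cells, 9.18 in Foxp3-null cells, 7.94 in GFP- CD25+ cells and 8.64 in GFP- CD25- cells. Ifit3, from the same cluster, read 8.66 log2 in Foxp3-fusion cells, 8.59 in Foxp3-null cells, 7.93 in GFP- CD25+ cells and 7.93 in GFP- CD25- cells. Ifit1 was 3.02-fold lower in Foxp3-fusion cells than in Foxp3-null cells, or 1.96-fold on the deposited scale, whereas Ifit2 and Ifit3 lay within 1.06-fold between these populations. On the deposited scale Ifit2 was 1.46-fold and Ifit3 1.64-fold higher in Foxp3-fusion cells, so the unequal behaviour of the cluster was seen on both scales.

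Slfn1, a Schlafen gene known to slow the growth of thymocytes, read 7.80 log2 in Foxp3-fusion cells, 8.38 in Foxp3-null cells, 5.92 in GFP- CD25+ cells and 7.47 in GFP- CD25- cells. GFP- CD25+ cells stood below the rest, by 2.92-fold against GFP- CD25- cells and by 5.51-fold against Foxp3-null cells. A second Slfn1 probe set was under the floor on all arrays, and the median over both gave -0.55 log2 for GFP- CD25+ over GFP- CD25- cells. Slfn2, beside it on chromosome 11 and known to hold T cells in quiescence, read 8.90 log2 in Foxp3-fusion cells, 9.32 in Foxp3-null cells, 8.52 in GFP- CD25+ cells and 8.27 in GFP- CD25- cells, and Slfn5 stayed within 0.78 log2 over the 4 arrays. The low value in GFP- CD25+ cells was therefore not shared by the neighbours of Slfn1. Parp9, which acts with the ubiquitin ligase Dtx3l, read 8.48 log2 in Foxp3-fusion cells, 7.55 in Foxp3-null cells, 6.34 in GFP- CD25+ cells and 6.74 in GFP- CD25- cells. Of the 19 type I genes above the floor, Parp9 alone passed 2-fold upward in Foxp3-fusion over GFP- CD25- cells, at 3.34-fold. This share, 5.26%, was below the 9.99% of all genes. Ifit3 and Isg20 joined it on the deposited scale, at 2.02-fold and 2.23-fold. There 3 of the 19 were thus higher, a share near the 14.8% of all genes.

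Parp14, the ADP-ribosyltransferase gene next to Parp9 on chromosome 16, read 9.27 log2 in Foxp3-fusion cells, 10.23 in Foxp3-null cells, 8.60 in GFP- CD25+ cells and 8.84 in GFP- CD25- cells. Xaf1, an apoptosis regulator, read 10.19 log2 in Foxp3-fusion cells, 11.25 in Foxp3-null cells, 9.85 in GFP- CD25+ cells and 10.31 in GFP- CD25- cells. Their peaks on the Foxp3-null array were not seen on the other probe set of each gene. The other Xaf1 probe set was lowest there, at 8.94 log2 in Foxp3-fusion cells, 8.02 in Foxp3-null cells, 9.99 in GFP- CD25+ cells and 9.39 in GFP- CD25- cells, and the other Parp14 probe set gave 8.28 in Foxp3-fusion, 8.21 in Foxp3-null, 8.58 in GFP- CD25+ and 8.73 in GFP- CD25- cells. Isg20, an exonuclease that degrades RNA, read 7.99 log2 in Foxp3-fusion cells, 8.55 in Foxp3-null cells, 7.28 in GFP- CD25+ cells and 7.10 in GFP- CD25- cells, with both GFP+ populations above both GFP- ones.

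Oas2, which makes the second messenger that activates RNase L, was 1 of 3 type I genes with GFP- CD25- as the highest array. It read 4.65 log2 in Foxp3-fusion cells, 5.73 in Foxp3-null cells, 5.64 in GFP- CD25+ cells and 7.06 in GFP- CD25- cells. Oas2 was 5.33-fold lower in Foxp3-fusion cells, 2.52-fold lower in Foxp3-null cells and 2.67-fold lower in GFP- CD25+ cells than in them. Mx1, a dynamin-like antiviral GTPase whose gene is defective in C57BL/6 mice, read 6.44 log2 in Foxp3-fusion cells, 5.54 in Foxp3-null cells, 5.11 in GFP- CD25+ cells and 5.81 in GFP- CD25- cells. Usp18, which removes Isg15 from proteins and damps the type I receptor, read between 5.92 in GFP- CD25+ cells and 6.72 in Foxp3-fusion cells. On the probe sets used, the RNA sensor genes ranged over 0.61 log2 for Ifih1 (MDA5), 0.84 for Ddx58 (RIG-I) and 0.23 for Dhx58 (LGP2). Dhx58 lay near the floor on every array. Another Ddx58 probe set ranged wider, at 6.32 log2 in Foxp3-fusion, 6.93 in Foxp3-null, 5.87 in GFP- CD25+ and 7.06 in GFP- CD25- cells. Ifi35 ranged over 0.60 log2 and the antiviral gene Rsad2 (viperin) over 0.71. Of the other Ifi35 probe sets, 1 ran from 4.14 in GFP- CD25+ to 5.77 in Foxp3-fusion cells, and 1 lay between 7.88 and 8.26.

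Over the 19 type I genes above the floor, GFP- CD25+ was the lowest array for 11, against 18.8% of all genes. On the deposited scale it was lowest for 13 of the 19 and for 24.3% of all genes. Foxp3-null was the highest array for 10 of the 19 and for 39.1% of all genes, but for 4 of the 19 and 21.9% of all genes on the deposited scale, where Foxp3-fusion was highest for 10 (52.6%), against 44.5% of all genes. On the normalized scale Foxp3-fusion was highest for 5 of the 19 (26.3%), against 25.3%. The order of the GFP+ populations for the type I genes thus depended on the scale, while the low place of GFP- CD25+ cells was found on both. In GFP- CD25+ over GFP- CD25- cells the type I median was -0.40 log2 against 0.10 for all genes, and 4 of the 19 genes were above 0. The deposited scale gave -0.63 against 0.00. In Foxp3-fusion over Foxp3-null cells the type I median was -0.42 against -0.15 for all genes, and 0.17 against 0.23 on the deposited scale, so its sign turned with the scaling. The 3 type I genes (15.8%) past 2-fold there, Ifit1, Oas2 and Xaf1, were lower in Foxp3-fusion cells, against 9.37% of all genes. The 3 past it on the deposited scale, Mx1, Parp9 and Usp18, were higher (15.8%), a share below the 19.5% of all genes there.

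**Figure D3:**
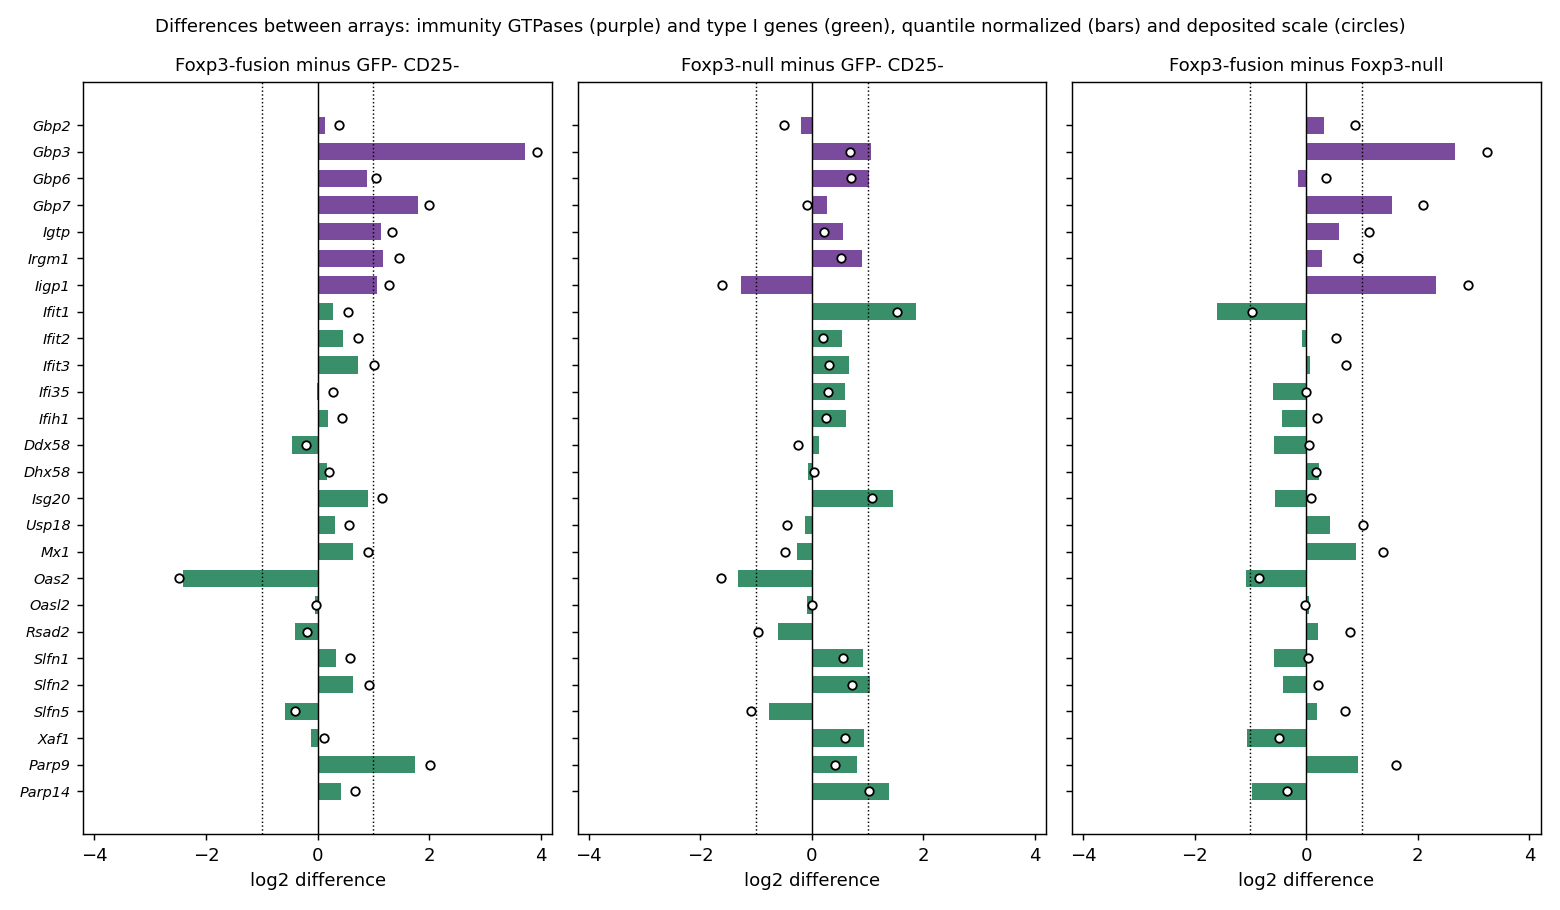
Log2 differences of 7 immunity GTPase genes (purple) and 19 type I genes (green) in 3 comparisons, as bars for quantile normalized values and open circles for deposited values, with dotted lines at 2-fold. In Foxp3-fusion minus GFP- CD25- cells 5 GTPase bars pass 2-fold and 1 type I bar, Parp9, does so upward, while in Foxp3-fusion minus Foxp3-null cells most circles lie to the right of their bars.

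Among the receptor genes, the chains for interferon gamma had the widest ranges on the probe sets used. Ifngr1, the ligand-binding chain, read 8.00 log2 in Foxp3-fusion cells, 5.79 in Foxp3-null cells, 6.28 in GFP- CD25+ cells and 5.36 in GFP- CD25- cells. Foxp3-fusion cells stood alone at the top, 6.23-fold over GFP- CD25- cells, 4.61-fold over Foxp3-null cells and 3.29-fold over GFP- CD25+ cells. Ifngr2, the second chain of that receptor, read 6.96 log2 in Foxp3-fusion cells, 4.66 in Foxp3-null cells, 8.35 in GFP- CD25+ cells and 7.96 in GFP- CD25- cells. Here Foxp3-null cells were far below the rest, 9.85-fold under GFP- CD25- cells, and Foxp3-fusion cells were 2.00-fold under GFP- CD25- cells, which before rounding is just short of the threshold. The other Ifngr2 probe set was under the floor on all arrays, and the median over both put Foxp3-null cells 1.76 log2 under GFP- CD25- cells. The receptor chains therefore had unlike patterns, with GFP- CD25- cells lowest for Ifngr1 and near the top for Ifngr2.

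Ifnar1 read 9.62 log2 in Foxp3-fusion cells, 8.82 in Foxp3-null cells, 9.12 in GFP- CD25+ cells and 9.50 in GFP- CD25- cells. Ifnar2 read 8.14 log2 in Foxp3-fusion cells, 8.12 in Foxp3-null cells, 8.82 in GFP- CD25+ cells and 7.89 in GFP- CD25- cells. On these probe sets both stayed under 2-fold between any pair of arrays, although on the deposited scale Ifnar1 was 2.62-fold higher in Foxp3-fusion cells than in Foxp3-null cells and Foxp3-null cells were 2.03-fold under GFP- CD25- cells. A dimmer Ifnar1 probe set read 5.66 log2 in Foxp3-fusion, 3.56 in Foxp3-null, 5.01 in GFP- CD25+ and 4.95 in GFP- CD25- cells, under the floor in Foxp3-null cells alone. The other Ifnar2 probe sets gave 2.74-fold and 3.21-fold for Foxp3-fusion over GFP- CD25- cells, where the brightest one gave 1.19-fold, and 3.82-fold and 1.90-fold for Foxp3-null over GFP- CD25- cells, where it gave 1.17-fold. The type I receptor chain genes thus passed 2-fold or not depending on the probe set. Ifnar2, Ifnar1 and Ifngr2 lie in that order on chromosome 16. On the deposited scale Foxp3-null was the lowest array for each of them, at 7.86, 8.55 and 4.66 log2. For Ifnar2 GFP- CD25- cells were close, at 7.98. On the normalized scale Foxp3-null was lowest for Ifnar1 and Ifngr2, and GFP- CD25- for Ifnar2. The highest array was GFP- CD25+ for Ifnar2 and Ifngr2, and Foxp3-fusion for Ifnar1.

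On the normalized scale the transcription factor genes varied less than Ifngr1, Ifngr2 and the GTPase genes. Irf1 and Irf2 nevertheless ranged wider there than Ifnar1 and Ifnar2 on the probe sets used. On the deposited scale Irf1 ranged wider than Ifnar1, Ifnar2 and Gbp6, whereas Irf2 ranged less than each of them. Irf1, a main activator of interferon gamma targets, read 9.74 log2 in Foxp3-fusion cells, 9.11 in Foxp3-null cells, 8.77 in GFP- CD25+ cells and 9.37 in GFP- CD25- cells. Its order of arrays was that of Gbp2, and on the deposited scale Irf1 in Foxp3-fusion cells was 2.36-fold higher than in Foxp3-null cells and 2.76-fold higher than in GFP- CD25+ cells. Irf2, which competes with Irf1 for its sites, read 6.73 log2 in Foxp3-fusion cells, 7.74 in Foxp3-null cells, 7.53 in GFP- CD25+ cells and 6.88 in GFP- CD25- cells. Irf2 in Foxp3-fusion cells was 2.00-fold under Foxp3-null cells, just past the threshold, and 1.32-fold lower on the deposited scale. Irf3, Irf7 and Irf9 ranged over 0.70, 0.72 and 0.61 log2, and Stat2, near the floor, over 0.20. The Irf3 probe set used is of a kind that can match several transcripts. Of the other Irf3 probe sets, 1 lay between 4.47 and 4.54 on every array. Another read 4.65 in Foxp3-fusion, 3.11 in Foxp3-null, 2.93 in GFP- CD25+ and 4.26 in GFP- CD25- cells. The last was under the floor on every array. Across the 5 comparisons other than Foxp3-fusion over Foxp3-null, no transcription factor gene reached 2-fold on the normalized scale.

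Socs3, a feedback inhibitor of cytokine receptors, read 11.19 log2 in Foxp3-fusion cells, 10.35 in Foxp3-null cells, 10.29 in GFP- CD25+ cells and 10.12 in GFP- CD25- cells. Foxp3-fusion was the high array and the other 3 lay within 0.23 log2, with Foxp3-fusion cells 2.10-fold over GFP- CD25- cells. Another Socs3 probe set above the floor gave 1.96-fold in the same direction, but both are of a kind that can match several transcripts. The remaining Socs3 probe set, not of that kind, was under the floor on all arrays.

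**Figure D4:**
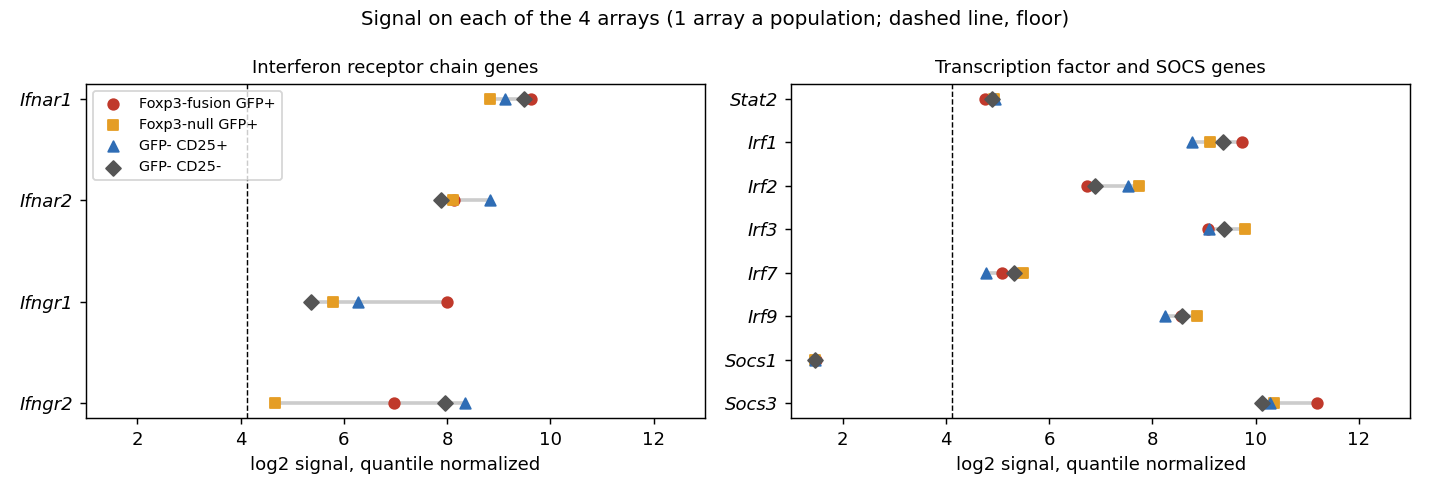
Log2 signal of each interferon receptor chain gene (left) and each transcription factor and SOCS gene (right) on the 4 arrays, 1 marker per population, with the floor as a dashed line. Ifngr1 stands out at 8.00 on the Foxp3-fusion array and Ifngr2 at 4.66 on the Foxp3-null array, while Irf2, read at 6.73 on the Foxp3-fusion array and 7.74 on the Foxp3-null array, spans the widest range of the transcription factor genes drawn.

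Set against all genes, the counts past 2-fold were as follows. In Foxp3-fusion over GFP- CD25- cells, 8 of 37 genes (21.6%) were at least 2-fold higher, against 9.99% of 8131 genes, and 1 (2.70%), Oas2, was lower, against 5.3%. The 8 were Gbp3, Gbp7, Igtp, Irgm1, Iigp1, Ifngr1, Parp9 and Socs3, all 2-fold apart on the deposited scale too. The median of the 37 was 0.27 log2, against -0.05 for all genes. On the deposited scale 11 were higher and 1 lower, where 1167 of 7905 genes were higher and 290 lower. For Foxp3-null against GFP- CD25- cells the count was 6 higher (16.2%), against a background of 10.8%, and 3 (8.11%) lower, against 7.5%, so the share lower was near that of all genes. On the deposited scale 3 were higher and 5 lower, where 448 of 8230 genes were higher and 953 lower, and the genes past 2-fold on both scales were Ifit1, Isg20 and Parp14 upward and Ifngr2, Iigp1 and Oas2 downward. In GFP- CD25+ over GFP- CD25- cells 0 of 37 genes were higher, against 4.12%, and 3 (8.11%), Ifit1, Oas2 and Slfn1, were lower, against 4.49%. The deposited scale gave 0 higher and 4 lower, where 221 of 7983 genes were higher and 569 lower.

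Of the 37 genes, 5 (13.5%) were past 2-fold upward in Foxp3-fusion over Foxp3-null cells, against 9.28%, and 4 (10.8%) were past it downward, against 9.37%. The deposited scale gave 12 higher and 0 lower, where 1634 of 8393 genes were higher and 324 lower. Past 2-fold on both scales were Ifngr1, Ifngr2, Gbp3, Gbp7 and Iigp1, all higher in Foxp3-fusion cells. In Foxp3-fusion over GFP- CD25+ cells 12 genes (32.4%) were higher, against 11.6%, and 1 (2.70%), Ifngr2, was lower, against 8.11%. The 12 were Ifngr1, all GTPase genes but Gbp6, and the type I genes Ifit1, Ifit2, Mx1, Slfn1 and Parp9. The deposited scale gave 18 higher and 0 lower, where 1712 of 8177 genes were higher and 270 lower. Foxp3-null set against GFP- CD25+ cells had 8 genes (21.6%) higher, against 8.59%, and 2 (5.41%), Ifngr2 and Iigp1, lower, against 7.28%. The deposited scale gave 8 higher and 2 lower, where 518 of 8282 genes were higher and 673 lower. These comparisons share arrays, so their counts are not independent of each other. In sorted bulk RNA fewer cells that express a gene and less RNA of it per cell cannot be told apart.

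**Figure D5:**
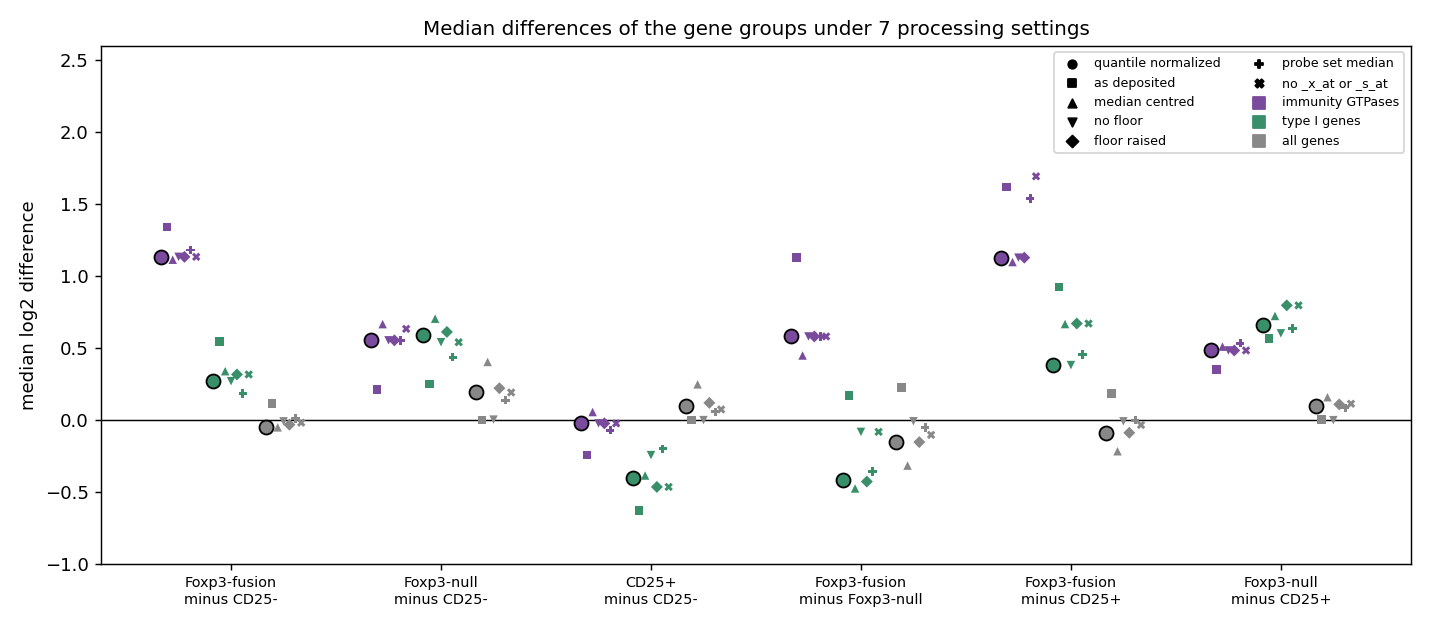
Median log2 difference of the immunity GTPases (purple), the type I genes (green) and all genes (grey) in 6 comparisons under 7 processing settings, with the quantile normalized values outlined and larger. The GTPase median in Foxp3-fusion minus GFP- CD25- cells lies between 1.11 and 1.34 under every setting drawn, whereas the type I median in Foxp3-fusion minus Foxp3-null cells runs from -0.48 to 0.17.

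A wider list of 77 interferon genes outside the 43 had 66 on the array and 50 above the floor on at least 1 array. Of these 50, 7 (14.0%) were higher by 2-fold or more in Foxp3-fusion over GFP- CD25- cells, against 9.99% of all genes, and 0 were lower, against 5.3%, and the median difference was 0.10 log2 against -0.05 for all genes. Foxp3-null over GFP- CD25- cells gave 5 of 47 higher (10.6%), near the 10.8% of all genes, and 0 lower, against 7.5%. GFP- CD25+ over GFP- CD25- cells gave 1 of 47 higher (2.13%), against 4.12%, and 2 lower (4.26%), near the 4.49% of all genes. On the deposited scale Foxp3-fusion over GFP- CD25- cells gave 7 of 49 higher, a share near the 14.8% of all genes. There 0 were lower, against 3.67%. Foxp3-null over GFP- CD25- cells gave 2 of 47 higher and 2 lower, against 5.44% and 11.6% of all genes. For GFP- CD25+ over GFP- CD25- cells it was 0 of 47 higher and 4 lower, against 2.77% and 7.13%. The 5 genes with the widest range were Irgm2, Trim34a, Epsti1, Ly6e and Jak1. Irgm2, an immunity-related GTPase gene, read 9.95 log2 in Foxp3-fusion cells, 8.91 in Foxp3-null cells, 7.19 in GFP- CD25+ cells and 7.90 in GFP- CD25- cells, the order of arrays found for Irgm1. Ly6e, a GPI-anchored surface protein gene, read 11.77 log2 in Foxp3-fusion cells, 10.12 in Foxp3-null cells, 9.58 in GFP- CD25+ cells and 10.01 in GFP- CD25- cells. Epsti1 read 8.73 log2 in Foxp3-fusion cells, 7.88 in Foxp3-null cells, 6.45 in GFP- CD25+ cells and 7.23 in GFP- CD25- cells. In these 3 genes Foxp3-fusion cells were highest and GFP- CD25+ cells lowest.

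Trim34a, a tripartite motif gene, read 7.16 log2 in Foxp3-fusion cells, 8.85 in Foxp3-null cells, 6.55 in GFP- CD25+ cells and 7.61 in GFP- CD25- cells, a Foxp3-null peak like that of Ifit1. Jak1, the kinase shared by both interferon receptors, read 9.79 log2 in Foxp3-fusion cells, 9.02 in Foxp3-null cells, 7.66 in GFP- CD25+ cells and 9.11 in GFP- CD25- cells. GFP- CD25+ cells were thus low for Jak1, 2.73-fold under GFP- CD25- cells, whereas its partner kinase genes Jak2 and Tyk2 differed by 1.32-fold and 1.25-fold in that comparison.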

How the data were processed

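Sorted thymocyte RNA was amplified in 2 rounds, labelled with biotin and hybridised to Affymetrix mouse arrays, per the labels' protocols. Each probe set has 1 deposited value on each array, taken as log2 from the range; the authors' summarisation and normalization are not given in the sources used here. Groups were taken from the sample titles, since the description of the Foxp3(gfpko/wt) sample repeats that of the other mice.

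The 45037 probe sets other than 64 controls were quantile normalized with Python 3.11.15, numpy 2.4.6 and pandas 2.3.3. GEO's platform annotation gave 1 gene for 34945 probe sets; 932 with several genes and 9160 without one were not named. RefSeq (GRCm38.p6) held all 40 members under the same symbols. For the floor, the 90th percentile of 69 probe sets of 42 silent genes was taken on each array and the largest kept; lower values were set to it. A gene was counted at 2-fold, with no test, since each population has 1 array, whose number limits the precision. All members, 5 genes of the wider list with the largest range, and sort and marker genes are named. The members and lists were chosen with earlier results of these data known. The scripts were tested on simulated data. Alternatives were the deposited scale, median centring, other floors, other probe set rules and a 3-fold threshold.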

Additional observations from a re-analysis of the deposited data

How the results depend on the processing

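Of 114 recomputed medians and counts, 107 stayed within 1.5-fold of the value reported. The type I median in Foxp3-fusion over Foxp3-null cells, -0.42 log2, was 0.17 on the deposited scale. The count of genes past the threshold fell at 3-fold, by construction, to 5 in Foxp3-fusion over GFP- CD25- cells, 2 in Foxp3-null over GFP- CD25-, 0 in GFP- CD25+ over GFP- CD25-, 5 in Foxp3-fusion over Foxp3-null, 6 in Foxp3-fusion over GFP- CD25+ and 4 in Foxp3-null over GFP- CD25+. With other settings the 2-fold counts ran over 9 to 12, 8 to 11, 3 to 4, 8 to 12, 11 to 18 and 10 to 12 in that order. The widest of those ranges was 11 to 18, in Foxp3-fusion over GFP- CD25+ cells. The 11, of 35 genes, came when a gene's probe sets were summarised by their median. There 752 of 6580 genes in all were higher and 238 lower. The 18, of 37 genes, came on the deposited scale, where 1712 of 8177 genes were higher and 270 lower. The other ranges are not set against all genes here. The GTPase medians ran over 1.11 to 1.34, 0.21 to 0.67, -0.24 to 0.05, 0.45 to 1.13, 1.10 to 1.69 and 0.35 to 0.53. Of the 53 single gene differences past 2-fold, 8 were under 2-fold on the deposited scale, 2 with median centring and 10 when a gene's probe sets were summarised by their median. Xaf1 in Foxp3-null over GFP- CD25+ cells turned to -0.28 log2 with that median, since its probe sets run in opposite directions. Without probe sets that can match several transcripts, Gbp2 in Foxp3-fusion over GFP- CD25+ cells was 2.75 log2 in place of 1.13. The deposited scale moved the median of all genes from -0.05 to 0.12 in Foxp3-fusion over GFP- CD25- cells, from 0.19 to 0.00 in Foxp3-null over GFP- CD25-, from -0.15 to 0.23 in Foxp3-fusion over Foxp3-null and from -0.09 to 0.18 in Foxp3-fusion over GFP- CD25+. No paired analysis was possible because each population has 1 array.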

Other observations

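Further genes of the wider interferon list, chosen after their values were seen, also differed by population. Irf4, a transcription factor gene of activated lymphocytes, read 7.33 log2 in Foxp3-fusion cells, 5.51 in Foxp3-null cells, 5.46 in GFP- CD25+ cells and 5.54 in GFP- CD25- cells, a single high array as for Gbp3 and Ifngr1. Ifi27l2a read 12.25 log2 in Foxp3-fusion cells, 11.97 in Foxp3-null cells, 11.53 in GFP- CD25+ cells and 10.47 in GFP- CD25- cells, so GFP- CD25- cells were the low population. The Schlafen gene Slfn9 had 8.26 log2 in Foxp3-fusion cells, 8.69 in Foxp3-null cells, 7.21 in GFP- CD25+ cells and 6.77 in GFP- CD25- cells, with both GFP+ populations above both GFP- ones. Adar, an RNA-editing enzyme gene, had 7.84 log2 in Foxp3-fusion cells, 9.18 in Foxp3-null cells, 8.64 in GFP- CD25+ cells and 8.23 in GFP- CD25- cells, so Foxp3-fusion cells were 2.53-fold under Foxp3-null cells.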
